A study of Xenopus laevis with 20 samples.

Results

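Frog animal caps in which Pax3 alone was activated were compared with caps that received only the hormone receptor used to control it. An animal cap is the prospective ectoderm of a Xenopus laevis blastula, cut out and grown by itself. The tested explants came from embryos given mRNA for Pax3GR, in which Pax3 is joined to the ligand-binding domain of glucocorticoid receptor (GR), and the control explants from embryos given mRNA for GR. Both kinds of embryo were injected at the 2-cell stage, both kinds of cap were taken at stage 9, and all spent 8 h in dexamethasone, a hormone that sets such fusion proteins free to act. From each single explant 100 ng of RNA was amplified and hybridised, giving 5 Pax3GR arrays and 5 GR arrays out of 20 in the series. The labels call the explants biological replicates but do not say whether those of the same number came from the same clutch. Explants with Zic1GR alone (5 arrays, same treatment) are used for direct comparison. A further group that received both fusions enters only the fit and the choice of probe sets. The p-values rest on the spread between explants of the same group, pooled over all 4 injections. The fusion message was injected and not expressed from the gene's own promoter. The genes described are 20519 of 32539 non-control probe sets, those at a log2 intensity of 4 or more on at least 5 of the 20 arrays. Of these, 8397 genes carried a single symbol and entered by their brightest probe set.

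Pax3 is a paired-box transcription factor of the neural plate border, the strip of ectoderm between the future epidermis and the neural plate from which neural crest, placodes and hatching gland arise. Left alone, a cap becomes epidermis with mucus-secreting goblet cells, multiciliated cells and acid- or base-transporting ionocytes, because bone morphogenetic protein (BMP) signals stay high. Where BMP signalling is lowered and Wnt or FGF signals are present, ectoderm takes border and neural fates instead. The usual markers of these tissues are left aside here, and the account turns to secreted factors, enzymes, transporters and the common machinery of the cell.

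The labels were first set against the level of the injected gene. A pax3.S probe set lay at 13.27 ± 0.0445 in Pax3GR explants and 2.36 ± 0.105 in GR explants (mean log2 intensity ± SD, n = 5 arrays each). Of 7 pax3 probe sets 4 rose, and 3 of the 5 for pax3.L were not called. Among these 3, the brightest lay at 14.14 in Pax3GR explants and 14.00 in GR explants (adjusted p = 0.427). Another lay at 13.75 in Pax3GR explants and 13.56 in GR explants (adjusted p = 0.127). A pax3.L probe set that rose lay at only 2.17 to 2.25 in GR explants. Whether the 3 that were not called measure pax3 was not tested. Since genes entered by their brightest probe set, pax3.L may count below among the genes not called. The zic1.S gene, whose message was not injected here, lay at 13.98 ± 0.115 and 7.69 ± 0.827. Which probe sets match the injected Pax3 message is not stated in the labels, so injected and native pax3 transcripts cannot be told apart. Log2 4 served as the background level, and each array had 18949 to 19239 probe sets at or above it.

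The 5 Pax3GR explants were less alike than the 5 GR explants. Correlated with the other arrays of its group, an array averaged 0.8805 for Pax3GR replicate 1 and 0.931 to 0.9405 for the other Pax3GR arrays, against 0.9629 to 0.9762 for GR arrays. Replicate 1 lay between the groups for many genes that fell. Because each value is the RNA of a whole explant, fewer cells of a type and less RNA per cell cannot be told apart.

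Marker genes of other germ layers were checked next. All 5 GR arrays lay below 4 for the 6 mesoderm marker genes. With Pax3GR 2 of them were called higher, the muscle regulator myod1.S at 4.17 to 5.15 and tbxt.S at 3.01 to 4.35. The tbxt.S mean in Pax3GR explants, 3.75, was still below 4. The other 4 were not tested and reached at most 3.55 in Pax3GR explants. The 4 probed copies of sox17, which define endoderm, reached at most 2.16 in Pax3GR explants and 2.13 in GR explants. The 4 blood genes reached at most 3.92 in Pax3GR explants and 4.96 in GR explants. Of 16 probe sets for epidermal markers 10 fell, 3 were not called and 3 were not tested. Among those not called, the ectodermal adhesion gene epcam.S lay at 14.43 ± 0.0215 in Pax3GR explants and 14.23 ± 0.113 in GR explants, a difference that did not pass the test (adjusted p = 0.147). The part of any other cell type in the results was not tested.

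Activation of Pax3 changed the cap very broadly. Of 20519 probe sets 10321 differed from GR at an adjusted p under 0.05 by limma, or 50.3%, with 5611 higher and 4710 lower. Among the 8397 named genes 2381 were higher (28.4%) and 1964 were lower (23.4%), and these shares are the background for every list below. Rises were more often small. With values below 4 set to 4, 1048 named genes were higher and 1266 lower by at least 2-fold, and the median difference was 0.89 log2 among those that rose and -1.39 among those that fell. For 189 named genes all 5 GR arrays lay below 4 and all 5 Pax3GR arrays at or above it. The reverse held for 81. For a gene with arrays below 4, a log2 difference or fold given below sets those values to 4 and has no SE, while the test used the values as deposited.

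The largest rise outside the usual markers was that of a secreted protein. The gene pnhd.L encodes pinhead, a cystine-rich secreted protein of the early Xenopus embryo. It had log2 intensities of 13.15, 13.79, 13.80, 13.64 and 13.32 in Pax3GR explants, against 2.24, 2.20, 2.23, 2.24 and 2.25 in GR explants. The groups lay far apart and every GR array was at background, so the level was at least 745-fold higher (adjusted p = 1.2e-17). The gene ptn.L, for the heparin-binding growth factor pleiotrophin, had 12.63, 13.44, 13.59, 13.52 and 13.19 in Pax3GR explants, against 2.20, 2.22, 2.80, 2.29 and 2.35 in GR explants. Its rise was at least 619-fold (adjusted p = 7.53e-09).

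Genes that neurons use on their surface were among the largest rises. The neuronal membrane glycoprotein gene gpm6a.L lay at 12.63, 12.52, 12.83, 13.04 and 13.01 in Pax3GR explants, against 3.88, 3.05, 3.21, 3.01 and 3.62 in GR explants, at least 447-fold higher (adjusted p = 1.35e-13). The gene nrn1.S for neuritin, a surface protein that promotes neurite growth, lay at 12.11, 12.14, 11.95, 12.40 and 12.66 in Pax3GR explants. It lay between 2.21 and 2.28 in GR explants, at least 305-fold lower than with Pax3GR (adjusted p = 3.93e-06). The repulsive guidance ligand sema3a.L rose by 7.44 log2, and the chemokine scavenger receptor ackr3.L, which takes up Cxcl12, rose by at least 161-fold. The planar polarity gene prickle1.S averaged 12.41 ± 0.151 in Pax3GR explants and 4.72 ± 0.32 in GR explants, a 207-fold rise (adjusted p = 6.86e-14).

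Several transcriptional and RNA regulators went from background to a high level. The zinc finger genes sp5.L and sp5l.S, known as targets of Wnt and FGF signals, were at least 354-fold and at least 467-fold higher. The sp5.L values were 12.50, 13.45, 12.59, 12.32 and 11.47 in Pax3GR explants, against 2.28, 2.23, 2.27, 2.26 and 2.38 in GR explants. The LIM homeobox gene lmx1b.1.S was at least 168-fold higher, and the homeobox gene dbx1.S, which marks the middle of the neural tube, at least 132-fold. The dbx1.S values split within the Pax3GR group, at 9.90 and 9.76 in replicates 1 and 2 and 11.52 to 12.21 in the others. Both copies of celf3, a splicing regulator of neurons, rose, celf3.S by at least 225-fold and celf3.L by at least 112-fold.

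Enzymes made up a further group of the largest rises. The gene dio3.L, for the deiodinase that inactivates thyroid hormone, lay at 11.94, 11.48, 11.77, 12.66 and 13.02 in Pax3GR explants, against 3.91, 3.90, 3.93, 3.89 and 2.75 in GR explants (at least 288-fold, adjusted p = 1.05e-06). The gene ass1.S, for the arginine-making enzyme argininosuccinate synthase, was at least 200-fold higher. The astacin-type protease gene astl2e.2.L was at least 289-fold higher, and crisp1.5.S, a cysteine-rich secretory protein gene, at least 342-fold. A probe set of the glycolytic kinase pgk1 averaged 12.17 ± 0.819 in Pax3GR explants and 5.21 ± 0.292 in GR explants. The ubiquitin ligase gene mylip.S, whose product takes the low-density lipoprotein receptor out of the membrane in mammals, was at least 128-fold higher. The remaining genes among the 25 largest rises were rassf6.L, sncg.S, rasd1, cnfn.1.L, nradd.L, scube2.L and lrig3.S, with differences of 7.12 log2 (lrig3.S) to 8.69 log2 (rassf6.L). A second probe set of rasd1, a Ras-like gene named for its induction by dexamethasone, was not called (1.02 log2, adjusted p = 0.0922).

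The same 25 genes were set against explants with Zic1GR alone in a direct test. Among all named genes 35.5% differed between Pax3GR and Zic1GR, 1463 higher and 1514 lower. Of the 25 genes 21 were higher with Pax3GR than with Zic1GR, 1 was lower and 3 were not called. Since the genes were picked for high values with Pax3GR, this count is a description. The gene nrn1.S lay at background in every Zic1GR explant (mean 2.25), as did crisp1.5.S (2.00) and astl2e.2.L (2.22), and each was higher with Pax3GR (adjusted p = 7.65e-06, 3.92e-08 and 1.79e-06). The single gene higher with Zic1GR was celf3.S, at 11.81 with Pax3GR and 12.59 with Zic1GR (adjusted p = 0.0176). The genes ptn.L, sp5.L and lrig3.S were not called, at 13.27, 12.47 and 11.63 with Pax3GR and 14.18, 10.45 and 11.60 with Zic1GR.

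**Figure D1:**
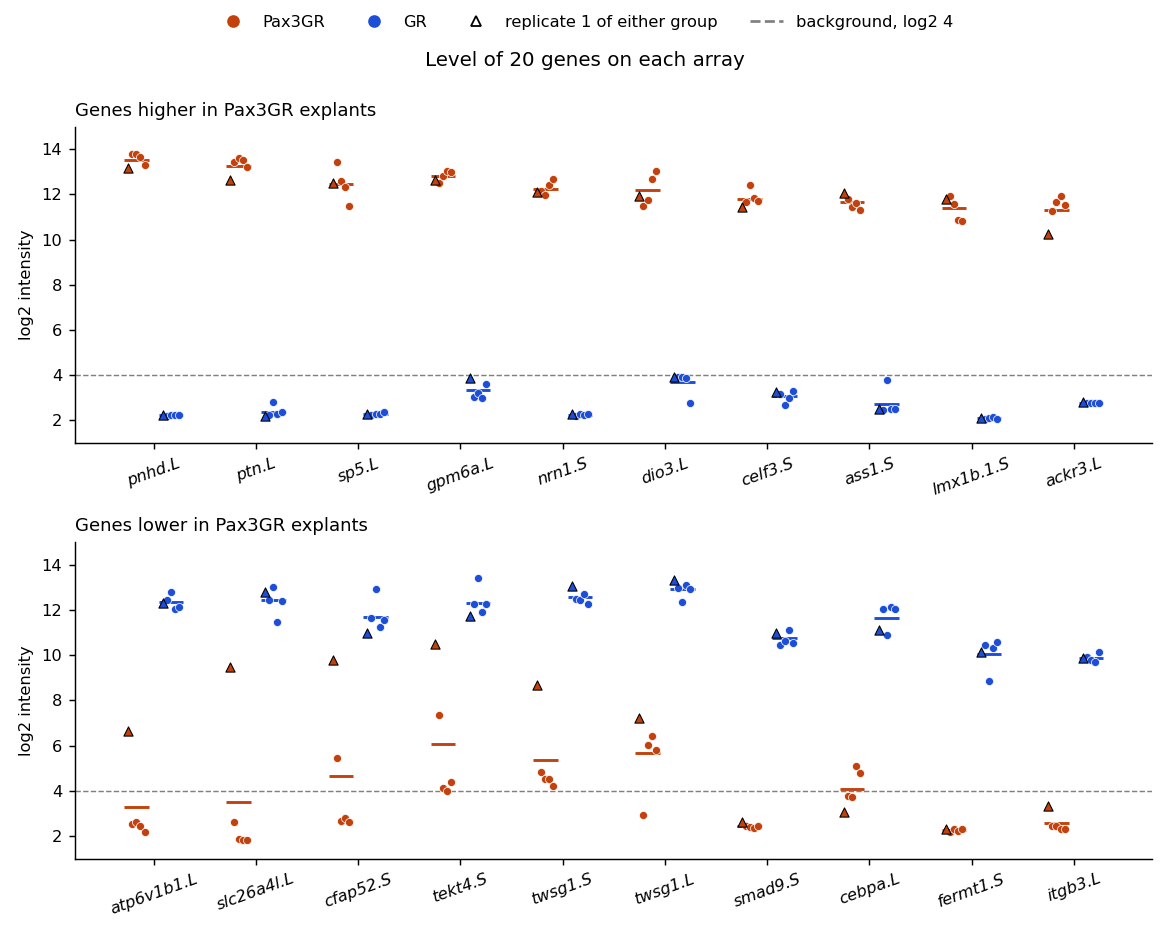
Log2 intensity of 20 genes on each Pax3GR array (orange, left of each pair) and each GR array (blue, right); short lines are means of 5 arrays, triangles mark replicate 1 of either group, and the dashed line is background at log2 4. In the upper panel every GR point lies below background, while in the lower panel the Pax3GR triangle of atp6v1b1.L (6.62), slc26a4l.L (9.46) and tekt4.S (10.47) lies above the other Pax3GR points.

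The largest falls took in the machinery of ionocytes. These cells pump protons with a vacuolar ATPase (V-ATPase) and exchange anions across the skin. Subunit genes atp6v1b1.L, atp6v1g3.L, atp6v0d2.L, atp6v0a4.L and atp6v1al.L fell, by 6.25 log2 (atp6v1al.L) to 7.83 log2 (atp6v1b1.L). The atp6v1b1.L values were 6.62, 2.52, 2.60, 2.46 and 2.19 in Pax3GR explants, against 12.29, 12.44, 12.81, 12.06 and 12.15 in GR explants (adjusted p = 5.01e-08). Only replicate 1 of the Pax3GR explants was above background. The same was seen in atp6v1g3.L, with 7.79 in replicate 1 and 2.33 to 2.38 in the other Pax3GR explants, and in slc26a4l.L, a gene named for its likeness to the anion exchanger pendrin, with 9.46 in replicate 1 and 1.80 to 2.61 in the other Pax3GR explants, against 11.46 to 13.02 in GR explants. The forkhead gene foxi4.2.S, with 7.98 in replicate 1 and 1.61 to 3.56 in the other Pax3GR explants, fell by 7.31 log2 (adjusted p = 1.35e-05). Of its 4 probe sets 3 fell and 1 was not called (adjusted p = 0.0596).

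The 25 largest falls also held 4 genes of motile cilia, a group for which no list was counted. The gene tekt4.S, for a tektin of the ciliary axoneme, had 10.47, 7.33, 4.11, 3.99 and 4.39 in Pax3GR explants, against 11.72, 12.27, 13.43, 11.91 and 12.24 in GR explants. The gene cfap161.L, for another axonemal protein, had 11.13, 6.90, 2.25, 2.33 and 2.44 in Pax3GR explants, against 11.78 to 12.80 in GR explants. Replicate 1 thus lay close to the GR range, replicate 2 between, and the other 3 explants at or near background. The genes cfap52.S and ccdc78.S, the second a part of the deuterosome on which ciliated cells make basal bodies, fell by 6.24 and 6.11 log2. In Pax3GR replicate 1 they lay at 9.77 and 7.74.

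Some large falls were as complete in replicate 1 as in the other Pax3GR explants. The gene smad9.S, for a transcription factor that BMP receptors activate, lay at 2.34 to 2.63 in Pax3GR explants and 10.46 to 11.10 in GR explants, at least 107-fold lower (adjusted p = 3.89e-07). The gene fermt1.S, for the integrin activator kindlin-1, lay at 2.32, 2.19, 2.29, 2.20 and 2.30 in Pax3GR explants, against 10.15, 10.45, 8.85, 10.30 and 10.56 in GR explants, at least 66.7-fold lower. An integrin chain, itgb3.L, was at least 59-fold lower (adjusted p = 1.1e-07). The leucine zipper factor gene cebpa.L averaged 4.08 ± 0.837 in Pax3GR explants and 11.63 ± 0.6 in GR explants. The largest fall outside the usual markers was that of val.L, at 2.41 ± 0.139 in Pax3GR explants and 13.34 ± 0.277 in GR explants, at least 646-fold lower.

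Both copies of twsg1, whose product twisted gastrulation binds BMPs outside the cell, fell by more than 7 log2. The twsg1.S values were 8.69, 4.82, 4.54, 4.54 and 4.23 in Pax3GR explants, against 13.07, 12.49, 12.42, 12.71 and 12.24 in GR explants (adjusted p = 7.96e-06). With Zic1GR alone twsg1.S lay at 12.21, and the direct difference from Pax3GR passed the test (adjusted p = 2.79e-05). Of the 25 largest falls 15 were lower with Pax3GR than with Zic1GR and 10 were not called, a description only, since they were picked for low values with Pax3GR. The foxi4.2.S level was 12.50 with Zic1GR and 3.32 with Pax3GR (adjusted p = 1.62e-05). The remaining genes of this group were tbc1d24.2.L, cul5.L, cmahp.L, mab21l3.S, bcar3.L, crygdl.11.S, tcaf1.L and slc9a3r2.S. For cul5.L, a second probe set was not called (-0.62 log2, adjusted p = 0.147).

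The explants differed in how far these changes went. For each Pax3GR array, probe sets were taken that differed by at least 2 log2 and passed the test without that array. Its position was then read as the percentage of the way from the GR mean to the mean of the other 4 Pax3GR arrays. For probe sets that rose, replicate 1 had a median position of 80.9% (1419 probe sets) and replicate 2 of 97.5%. For those that fell, replicate 1 had a median of only 39.9% (1906 probe sets), and 34.6% of them lay under 25%. Replicate 2 stood at 97.1% for falls, and replicates 3 to 5 at 118% to 120%. The positions of 1 array depend on the other 4, so the values above 100% in replicates 3 to 5 go with the low ones of replicate 1.

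**Figure D2:**
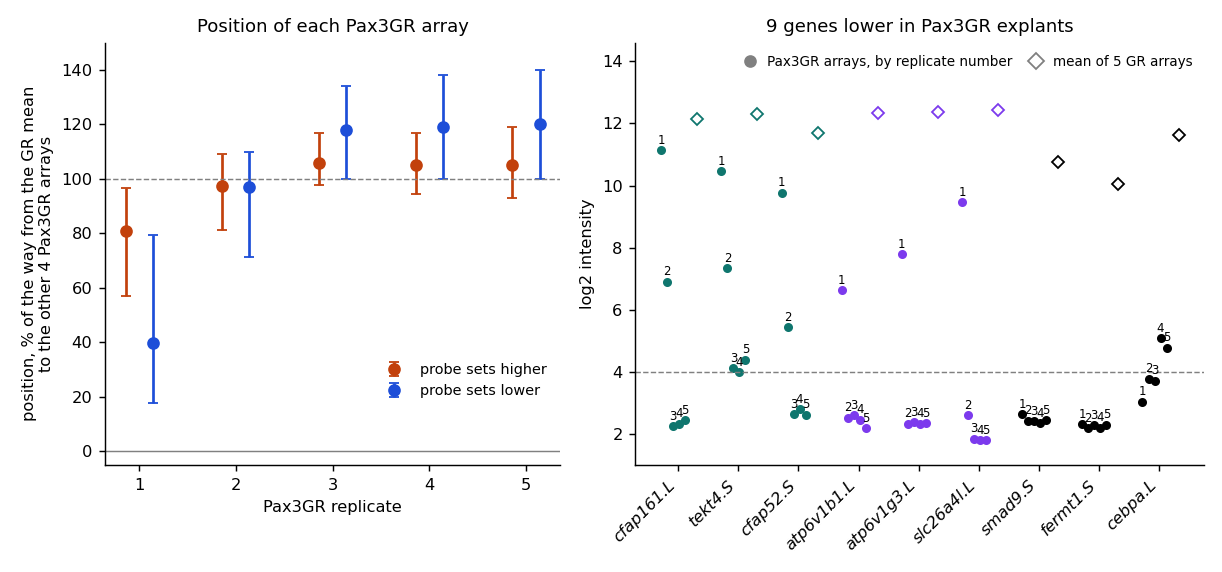
Left, median and quartiles of the position of each Pax3GR array (% of the way from the GR mean to the mean of the other 4 Pax3GR arrays), for probe sets higher (orange) and lower (blue) without that array; replicate 1 stands at 80.9% for rises and 39.9% for falls. Right, log2 intensity of 9 genes on the Pax3GR arrays, numbered by replicate, with the mean of 5 GR arrays as an open diamond and background dashed; the cilium genes (teal) and ionocyte genes (purple) are high in replicate 1, while smad9.S and fermt1.S (black) are at background in all 5.

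Beyond single genes, 36 lists of genes with a shared role were counted, with the 28.4% of named genes higher and 23.4% lower as background and a median difference of 0.096 log2 over all of them. Of 103 transcription factors outside the marker set, 52 rose and 25 fell, with a median of 0.76 log2. In 18 of the 52 all 5 GR arrays lay below background, and without these 34 of 85 rose (40%). The same step left 26.1% of all named genes higher. Besides sp5.L, lmx1b.1.S and dbx1.S the rule named klf2.S, a Krüppel-like factor, which fell to 5.48 ± 0.978 in Pax3GR explants, against 10.97 ± 0.43 in GR explants (adjusted p = 2.57e-05). The gene sall2.L, at 13.75 in both groups, was not called (adjusted p = 0.975).

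Of 30 splicing and RNA-binding regulators known from neurons or epithelia, 11 rose and 5 fell. In 3 of the 11 all 5 GR arrays lay below background. Without these 8 of 27 rose (29.6%), near the 26.1% of all named genes. The neuronal splicing factor nova2.L lay at 11.27, 11.59, 11.38, 11.16 and 10.99 in Pax3GR explants, against 5.04, 5.89, 5.06, 4.56 and 5.04 in GR explants, a rise of 6.16 ± 0.299 log2 (adjusted p = 2.18e-11). The epithelial splicing factor esrp1.L fell to 11.32 ± 0.788 in Pax3GR explants, against 13.10 ± 0.0978 in GR explants (adjusted p = 0.000353). The gene rbm38.L, for an RNA-binding protein that p53 induces in mammals, fell by 4.32 log2.

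Structural and secretory genes of neurons rose in 21 of 47 cases and fell in 8, with a median of 0.57 log2. In 9 of the 21 all 5 GR arrays lay below background, and without these 12 of 38 rose (31.6%), near the 26.1% of all named genes. Without Pax3GR replicate 5 the number that fell was 5. The neuropeptide gene tac1.L, which encodes substance P, lay at 10.10, 11.06, 9.81, 10.97 and 10.23 in Pax3GR explants, against 2.33, 2.29, 2.32, 2.32 and 2.34 in GR explants, at least 86.5-fold higher (adjusted p = 4.64e-11). The gene sst.1.L for somatostatin lay at 10.58, 11.45, 12.10, 12.63 and 12.77 in Pax3GR explants, against 6.06, 5.05, 5.17, 5.67 and 5.20 in GR explants (adjusted p = 3.2e-08). Enzymes that mature such peptides also rose, pcsk2.L by at least 13.2-fold and cpe.S by 5.73 ± 0.836 log2, as did the granule protein gene chga.S by at least 5.28-fold. With Zic1GR alone tac1.L and pcsk2.L averaged 2.37 and 2.63, below background, and both were higher with Pax3GR (adjusted p = 9.41e-11 and 1.26e-05). Among the 8 that fell were calb1.L, stmn3.S and sncg.L. The calb1.L values were 2.26 to 3.07 in Pax3GR explants and 3.83 to 8.65 in GR explants (adjusted p = 5.1e-05). For stmn3.S they were 2.42 to 2.49 with Pax3GR and 2.77 to 6.35 with GR (adjusted p = 0.000596). GR replicate 3 was below background for both. The sncg.L values overlapped, at 3.52 to 7.94 with Pax3GR and 6.48 to 8.76 with GR (adjusted p = 0.0271). The gene rtn4.S, at 12.63 in Pax3GR explants and 12.86 in GR explants, was not called (adjusted p = 0.26).

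Signalling genes outside the usual pathways moved both ways. Of 26 genes of the TGF-beta, activin and GDF pathway 12 rose and 5 fell. In 3 of the 12 all 5 GR arrays lay below background, and without these 9 of 23 rose (39.1%), against 26.1% of all named genes. The ligand gene tgfb1.L lay at 9.39, 9.64, 10.37, 10.86 and 10.71 in Pax3GR explants, against 2.41, 2.37, 2.40, 2.40 and 2.41 in GR explants, at least 73.1-fold higher (adjusted p = 2.14e-06). With Zic1GR it averaged 2.56 (adjusted p = 5.35e-06 for the difference). Tolloid-like proteases, which cut the BMP antagonist chordin, moved in opposite directions. The gene tll2.L rose by 3.69 log2, while tll1.S fell to 10.50 ± 0.379 in Pax3GR explants, against 13.13 ± 0.0513 in GR explants (adjusted p = 2.33e-06). The gene smad2.L, which carries activin signals, was not called, at 12.41 in Pax3GR explants and 12.27 in GR explants (adjusted p = 0.33).

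Receptor tyrosine kinases and their ligands moved in both directions, with 9 of 24 genes higher and 7 lower. In 3 of the 9 every GR array lay below background. Without these 6 of 21 rose (28.6%), near the 26.1% of all named genes. The Wnt5a receptor gene ror2.L rose to 11.57 ± 0.24 in Pax3GR explants, against 5.69 ± 0.336 in GR explants (adjusted p = 3.98e-13), and the vessel growth factor vegfc.S rose by at least 21.2-fold. The stem cell factor gene kitlg.S was at least 12.9-fold lower, and the platelet-derived growth factor genes pdgfb.S and pdgfa.S fell by 4.15 and 3.06 log2. The pdgfa.S values were 6.29, 6.52, 8.52, 9.94 and 9.68 in Pax3GR explants, against 11.03 to 11.40 in GR explants, and were lowest in replicates 1 and 2.

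G protein-coupled receptors and their partners gave 15 rises and 11 falls among 45. In 5 of the 15 all 5 GR arrays lay below background, and without these 10 of 40 rose (25%). The apelin receptor gene aplnr.L had 11.73, 8.91, 8.06, 9.49 and 10.28 in Pax3GR explants, against 4.46 to 7.5 in GR explants (adjusted p = 0.000129), highest in replicate 1. The phosphodiesterase gene pde9a.S had 5.45 in replicate 2 and 2.06 to 2.28 in replicates 3 to 5 of the Pax3GR explants, against 9.33 to 11.56 in GR explants. Pax3GR replicate 1, at 10 log2, lay inside the GR range.

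**Figure D3:**
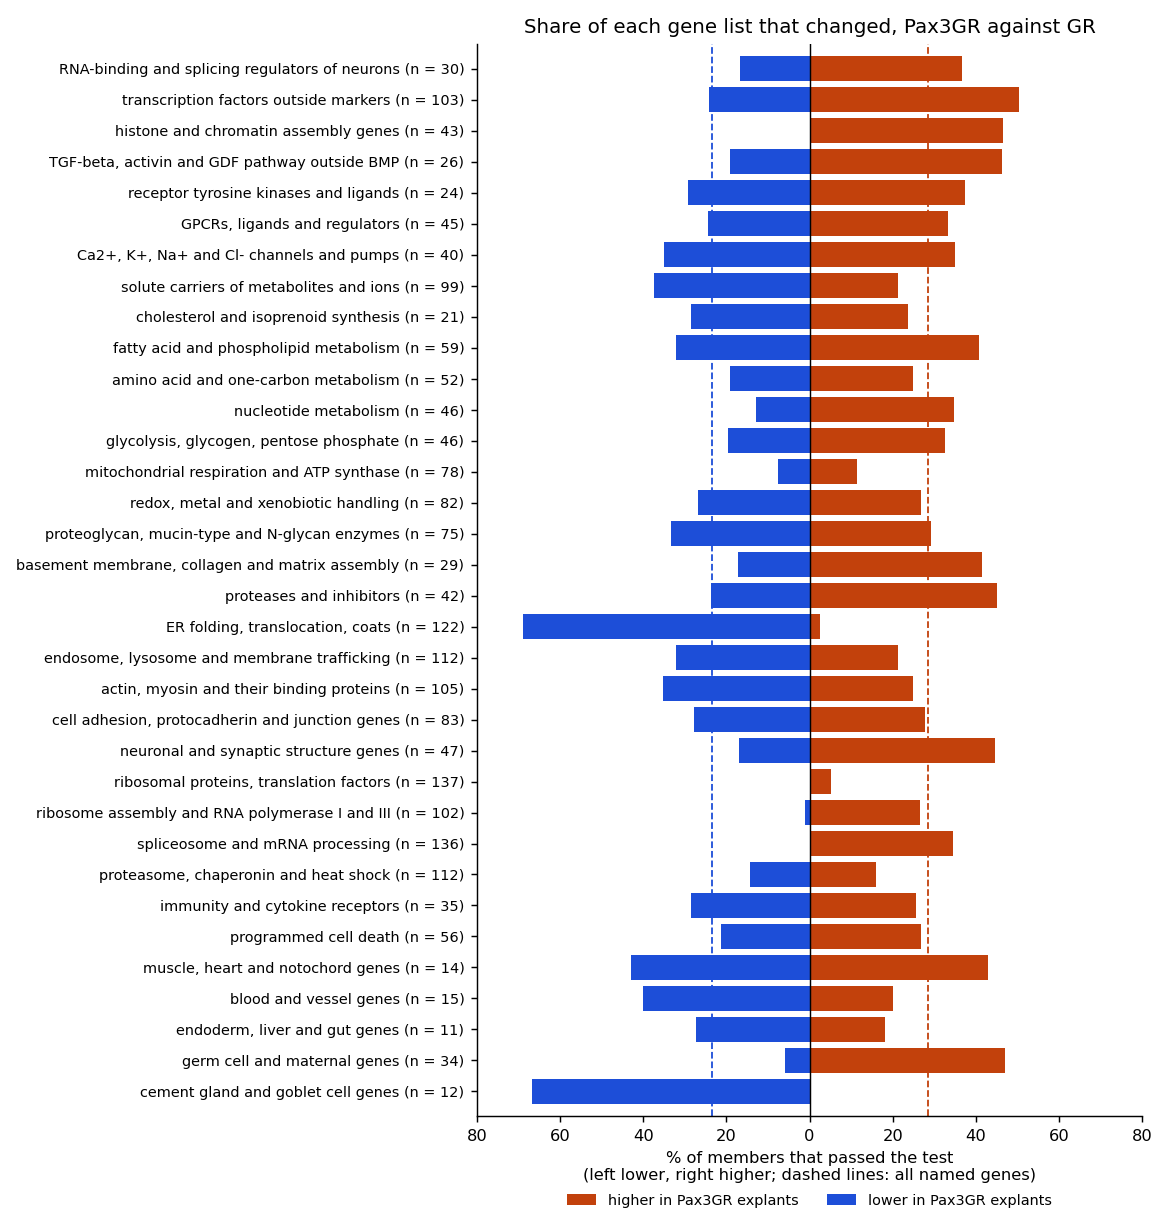
Percentage of the measured members of each gene list that were higher (orange, right) or lower (blue, left) in Pax3GR explants at an adjusted p under 0.05, for the reported lists of at least 10 genes with their n; dashed lines mark the 28.4% of all named genes higher and 23.4% lower. The list of the endoplasmic reticulum (ER) has 68.9% of its genes lower, and the spliceosome and histone lists have none lower.

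The list with the largest share of genes lower was that of the endoplasmic reticulum, where secreted and membrane proteins are threaded in, folded and sent on. Of 122 genes 84 fell (68.9%), 3 rose and 113 had a difference below 0, with a median of -0.49 log2. Over all named genes the median was 0.096 log2, and the share below 0 was not counted. The falls were small next to those of the epidermal genes but were shared by all 5 explants. The mean over the list, set against the GR mean, was -0.51, -0.68, -0.66, -0.51 and -0.63 log2 in the 5 Pax3GR explants, against 0.07, -0.04, 0.05, -0.02 and -0.07 in the 5 GR explants. The groups did not overlap, and Pax3GR replicate 1 was level with replicate 4. Leaving out any single array of either group gave 75 to 85 falls.

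Falls were found in each role within the pathway. In a division by role made after the values were seen, 23 of 28 folding enzymes and chaperones fell, 9 of 10 genes for the disposal of misfolded proteins, 16 of 27 for translocation, 11 of 17 for N-glycosylation, 2 of 4 stress sensors and transcription factors and 23 of 36 for vesicle coats, cargo receptors and the Golgi. The co-chaperone gene dnajc3.L lay at 9.98, 8.91, 9.16, 9.14 and 8.39 in Pax3GR explants, against 11.64, 11.64, 12.01, 11.91 and 11.60 in GR explants, a fall of 2.64 ± 0.297 log2 (adjusted p = 1.23e-06). The gene hyou1.S, for an ER chaperone of the Hsp70 type, lay at 5.11 to 6.58 in Pax3GR explants and 7.87 to 8.34 in GR explants. The gene alg5.S, for a glucosyltransferase of N-glycan assembly, fell by 2.37 ± 0.349 log2. The translocon subunit gene sec61b.L was not called, at 14.23 in Pax3GR explants and 14.36 in GR explants (adjusted p = 0.121, or 0.0113 with a trended and robust variance model).

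Central genes of the ER stress response were looked at after their values were seen. The main ER chaperone gene hspa5.L, which encodes BiP, lay at 11.40, 10.56, 10.48, 11.24 and 10.73 in Pax3GR explants, against 12.39, 12.39, 12.66, 12.33 and 12.25 in GR explants (difference -1.52 ± 0.218 log2, adjusted p = 1.9e-05). The other copy hspa5.S fell by 1.15 log2. The transcription factor gene xbp1.L lay at 13.54, 13.31, 13.20, 13.33 and 13.19 in Pax3GR explants, against 14.19, 14.05, 14.08, 14.08 and 14.08 in GR explants (adjusted p = 4.64e-05). The stress sensor gene atf6.S fell by 2.06 log2, and atf4.L was not called (adjusted p = 0.416). Among the exceptions dnajb9.L, another co-chaperone gene, rose by 0.77 ± 0.217 log2 (adjusted p = 0.00677). Against Zic1GR, 46 of the 122 genes were lower and 4 higher with Pax3GR, with a median of -0.24 log2. Among all 8397 named genes 1514 were lower and 1463 higher in that comparison, with a median of -0.041 log2.

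Of 12 genes of cement gland and goblet cells 8 fell and 0 rose by limma (0 also at an unadjusted p under 0.05), with a median of -3.06 log2. The gene agr2.S, for a disulphide isomerase of mucus-secreting cells, lay at 10.06 and 9.61 in Pax3GR replicates 1 and 2 and 6.47 to 6.71 in the other Pax3GR explants, against 14.12, 13.99, 14.16, 14.26 and 13.88 in GR explants (adjusted p = 4.13e-05). Replicates 1 and 2 lay higher than the other 3 Pax3GR explants for this list, at -1.71 and -1.86 log2 against -3.37 to -3.50, whereas for the ER list the same 2 arrays stood at -0.51 and -0.68. The part of secretory cells in the ER values was not tested.

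**Figure D4:**
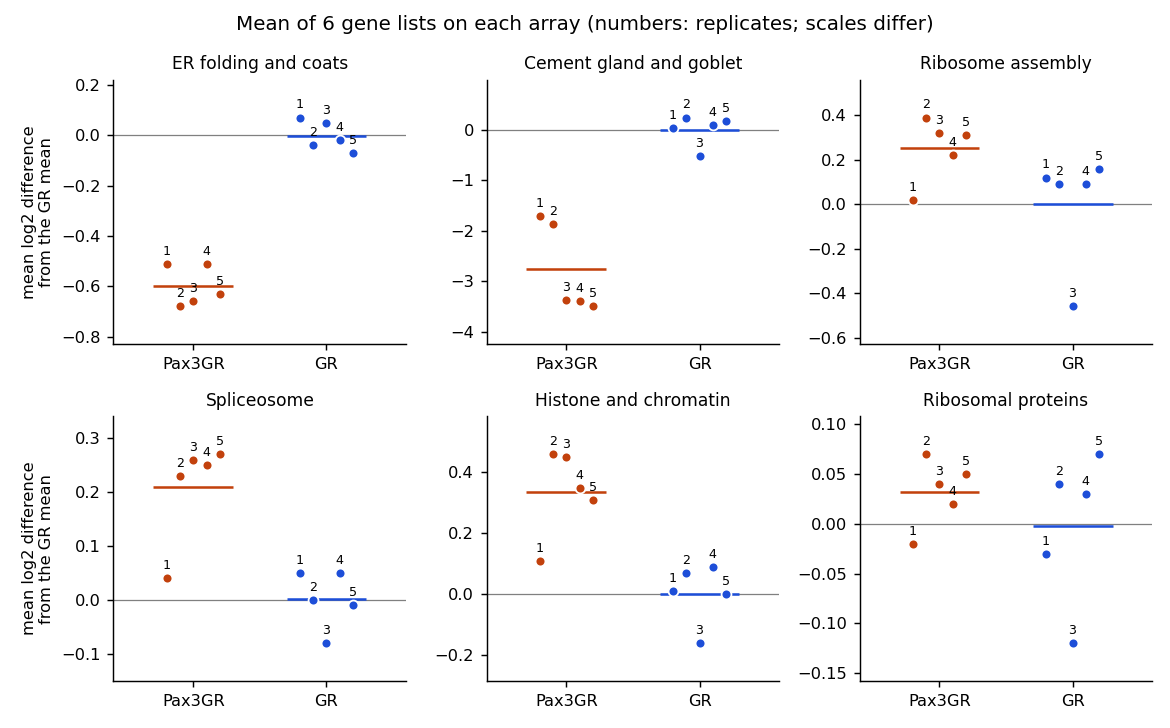
Mean over the genes of 6 lists on each array, as a log2 difference from the mean of the 5 GR arrays (values below 4 set to 4); Pax3GR arrays are orange on the left, GR arrays blue on the right, numbers are replicates, horizontal lines are group means, and the scales differ. The ER list lies at -0.51 to -0.68 in all Pax3GR arrays, while for ribosome assembly Pax3GR replicate 1 (0.02) lies within the GR range and GR replicate 3 (-0.46) lies below the rest.

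Genes of mRNA splicing and processing leaned to small rises. Of 136 genes 47 rose (34.6%, against 28.4% of all named genes), and 122 had a difference above 0, with a median of 0.17 log2. None fell by limma (2 at an unadjusted p under 0.05). At a threshold of 0.01 in place of 0.05, 25 of the 136 rose, beside 1735 of all 8397 named genes, so the share of rises depended on the threshold. All named genes had a median of 0.096 log2, and their share above 0 was not counted. The polyadenylation factor gene cstf2.L rose to 11.32 ± 0.0955 in Pax3GR explants, against 10.31 ± 0.183 in GR explants (adjusted p = 1.21e-05). The gene srsf3.S, for a splicing factor among the brightest of the list, was not called, at 14.75 in Pax3GR explants and 14.67 in GR explants (adjusted p = 0.339, or 0.0433 with a trended and robust variance model). Histone and chromatin assembly genes behaved likewise, with 20 of 43 higher (9 at a threshold of 0.01) and a median of 0.28 log2. Of these 43 genes 0 were lower (0 also at an unadjusted p under 0.05). Examples were smarca4.S, the motor of a chromatin remodelling complex, which rose by 1.91 ± 0.2 log2, and the histone chaperone anp32b.L, which rose by 1.14 ± 0.182 log2. In both lists Pax3GR replicate 1 stood nearest to the GR explants, with a mean of 0.04 log2 for splicing (0.23 to 0.27 in the other Pax3GR explants) and 0.11 for histones (0.31 to 0.46).

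For the assembly of ribosomes, 27 of 102 genes rose (26.5%), near the 28.4% of all named genes. Only 1 fell (tsr1.L, by 0.38 log2), or 0.98% against 23.4% of all named genes. The median was 0.23 log2. The count of rises rested on single arrays more than those of the other lists did. It was 13 without GR replicate 3, which had the lowest mean of the list (-0.46 log2), 16 without Pax3GR replicate 2 and 17 without Pax3GR replicate 3. The RNA polymerase I subunit gene polr1e.L lay at 11.90, 12.26, 12.09, 11.80 and 11.96 in Pax3GR explants, against 10.20 to 11.07 in GR explants (adjusted p = 1.9e-05). Set directly against Zic1GR, 45 of the 102 genes were lower with Pax3GR and 57 were not called, with a median of -0.37 log2. Among all 8397 named genes 1514 were lower with Pax3GR than with Zic1GR, with a median of -0.041 log2.

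Ribosomal proteins and translation factors were mostly not called. Of 137 genes 7 rose (4 without Pax3GR replicate 3 or 4, or GR replicate 3) and 0 fell (2 at an unadjusted p under 0.05), with a median of 0.03 log2, and rpl31.S lay at 14.82 in Pax3GR explants and 14.85 in GR explants (adjusted p = 0.74). Mitochondrial respiration gave 9 rises and 6 falls among 78 genes (3 falls without GR replicate 4), below the background shares in both directions. The gene sdhb.S, of succinate dehydrogenase, fell by 0.69 ± 0.17 log2, and cs.L, for citrate synthase, was not called (adjusted p = 0.339). Proteasome, chaperonin and heat shock genes rose in 18 and fell in 16 of 112 cases. The small heat shock gene hspb7.L was at least 13.1-fold lower, and the proteasome subunit gene psmd8.L rose by 0.78 log2.

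Metabolic enzymes changed gene by gene. Nucleotide metabolism rose in 16 of 46 genes and fell in 6. The mitochondrial adenylate kinase gene ak3.S rose by 5.86 log2 and the purine phosphorylase gene pnp.L by 3.75 ± 0.414 log2. The adenosine deaminase gene ada.S fell to 7.91 ± 0.724 in Pax3GR explants, against 12.64 ± 0.133 in GR explants. The gene ak1.L had 7.92 in replicate 1 and 2.04 to 2.51 in the other Pax3GR explants, against 9.27 to 11.19 in GR explants.

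Carbon metabolism showed the same mix. Glycolysis, glycogen and the pentose phosphate pathway rose in 15 of 46 genes and fell in 9. The gluconeogenic fructose bisphosphatase gene fbp2 was at least 18.8-fold higher, and pdk4.S, whose product keeps pyruvate out of mitochondria, rose to 12.40 ± 0.553 in Pax3GR explants, against 8.97 ± 0.615 in GR explants. Enzymes of fatty acids and phospholipids rose in 24 and fell in 19 of 59 cases. Among them the ceramide synthase gene cers3.L rose by 3.28 ± 0.311 log2, the fatty acid elongase elovl5.S rose by at least 10.3-fold, and sptlc3.S, for a subunit of the first enzyme of sphingolipid synthesis, fell by 5.22 log2 (8.93 in replicate 1). Cholesterol synthesis, with 5 rises and 6 falls among 21 genes, included acat2.L (2.20 log2), stard4.L (-2.05 log2) and nsdhl.L (-1.87 log2).

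Amino acid metabolism gave 13 rises and 10 falls among 52 genes. The glutamate dehydrogenase gene glud1.S rose by 1.62 ± 0.244 log2, and the histidine-degrading enzyme hal.1.L and the ornithine aminotransferase oat.1.L fell by 3.16 and 2.88 log2 (hal.1.L at 11.98 in replicate 1). Redox and detoxifying genes rose in 22 and fell in 22 of 82 cases. The thioredoxin reductase gene txnrd1.L lay at 10.22, 10.35, 11.22, 11.58 and 11.35 in Pax3GR explants, against 4.88, 2.93, 2.60, 2.66 and 2.59 in GR explants (adjusted p = 1.03e-06). Its substrate gene txn.L moved the other way, with 8.23 and 7.15 in Pax3GR replicates 1 and 2 and 3.91 to 4.01 in the other Pax3GR explants, against 10.88, 9.90, 10.93, 7.85 and 10.13 in GR explants (adjusted p = 0.00248), where Pax3GR replicate 1 overlapped the GR range. The metallothionein gene mt4.L fell by 3.64 log2, and prdx1.S was not called (adjusted p = 0.305).

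Among genes of transport across membranes, solute carriers fell more often than they rose. Channels and pumps were called equally often in both directions, but their share of falls was also above that of all named genes (23.4%). Of 99 solute carriers 21 rose and 37 fell (37.4%), with a median of -0.37 log2. The glucose transporter gene slc2a12.L had 7.89, 5.54, 1.97, 2.06 and 2.11 in Pax3GR explants, against 9.75 to 10.29 in GR explants. The gene slc3a2.S, for the heavy chain of amino acid transporters, fell by 3.64 log2 (12.07 in replicate 1), while both copies of the neutral amino acid transporter slc43a2 rose, slc43a2.S by 5.50 ± 0.564 and slc43a2.L by 5.43 ± 0.482 log2. The monocarboxylate transporter gene slc5a8.1.L had 9.13, 5.71, 11.84, 11.62 and 11.94 in Pax3GR explants, against 2.42 to 2.50 in GR explants, and was lowest in replicate 2. Among 40 channels and pumps 14 rose and 14 fell (35%). In 5 of the 14 that rose all 5 GR arrays lay below background, and without these 9 of 35 rose (25.7%). The potassium channel gene kcnk6.L was at least 115-fold higher with Pax3GR than with GR (adjusted p = 6.05e-08), and averaged 2.52 with Zic1GR, while its relative kcnk1.S fell by 3.77 log2.

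Of 29 matrix genes 12 rose and 5 fell (3 without Pax3GR replicate 3 or GR replicate 2, 4 or 5). In 5 of the 12 all 5 GR arrays lay below background, and without these 7 of 24 rose (29.2%). The microfibril genes fbn3.L and mfap2.L, for a fibrillin and its partner, were at least 52.3-fold and at least 35-fold higher. The secreted matrix factors ccn2.L and ccn1.S went opposite ways, 3.22 log2 higher (adjusted p = 0.0138) and at least 2.91-fold lower. Of 42 proteases and inhibitors 19 rose and 10 fell. The stromelysin-type protease gene mmp3.L fell by 3.84 log2 (10.39 in replicate 1) and the secreted protease gene htra1.S by 3.78 log2.

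Membrane trafficking leaned to falls, with 36 of 112 genes lower and 24 higher. The tetraspanin gene cd82.L lay at 12.35, 13.01, 12.95, 12.63 and 12.46 in Pax3GR explants, against 7.04, 6.43, 6.87, 6.08 and 7.19 in GR explants (adjusted p = 1.6e-11). The other copy, cd82.S, was called lower (-0.62 log2, adjusted p = 0.00138). The lysosomal membrane gene lamp1.L rose by 3.87 ± 0.24 log2. The epithelial sorting gene rab25.L had 11.69, 9.73, 6.27, 6.01 and 6.65 in Pax3GR explants, against 11.51 to 12.25 in GR explants, with replicate 1 inside the GR range. Over the 10 trafficking probe sets that fell by at least 2 log2 without replicate 1, the median position of replicate 1 was 11.6%. The gene cd63.L, at 14.13 in Pax3GR explants and 14.18 in GR explants, was not called (adjusted p = 0.539).

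Actin and myosin genes fell in 37 and rose in 26 of 105 cases. Both copies of the smooth-muscle type myosin heavy chain myh11 rose, myh11.S by at least 28.9-fold and myh11.L by at least 20.4-fold, and both lay near 2.1 in Zic1GR explants (means 2.09 and 2.08). The actin cross-linker flnc.L rose by 5.58 log2. The cytoskeletal adaptor gene pdlim1.L lay at 5.90, 5.63, 5.66, 5.11 and 5.15 in Pax3GR explants, against 10.53, 10.92, 10.54, 10.53 and 10.50 in GR explants (adjusted p = 3.49e-10). The gene actg1.L, for the common gamma actin, was not called, at 14.79 in Pax3GR explants and 14.77 in GR explants (adjusted p = 0.781). Adhesion and junction genes split evenly, 23 higher and 23 lower of 83. Both copies of flrt3, a membrane protein that modulates cell adhesion and FGF signals, rose, flrt3.S by at least 34.5-fold and flrt3.L by 3.45 log2.

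Enzymes that build glycans rose in 22 and fell in 25 of 75 cases. The sialyltransferase gene st8sia1.L, which makes the ganglioside GD3, was at least 23.7-fold higher, and the galactosyltransferase gene b4galt3.L fell by 3.74 ± 0.39 log2. Genes of programmed cell death rose in 15 and fell in 12 of 56 cases. These shares (26.8% and 21.4%) were near the 28.4% and 23.4% of all named genes. The caspase-activating gene apaf1.L lay at 8.98, 9.20, 8.96, 9.31 and 9.04 in Pax3GR explants, against 4.68 to 7.25 in GR explants (adjusted p = 0.000488), and the p53 target sesn1.L rose by at least 10.4-fold. The caspase inhibitor gene birc7.S was at least 10.2-fold lower, and both copies of the growth arrest gene gadd45g fell, by 3.98 and 1.84 log2. In the immunity and cytokine list, 9 of 35 genes rose and 10 fell. The kinase gene jak2.L fell to 8.19 ± 0.994 in Pax3GR explants, against 12.36 ± 0.29 in GR explants, and the feedback gene socs2.S fell by 2.96 log2.

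Lists named for germ cells, other tissues and small secretory cells were also counted. Germ cell and maternal genes rose in 16 of 34 cases (47.1%) and fell in 2 (1 without any single one of Pax3GR replicates 1 to 4 or GR replicates 1, 3 or 5). The germ cell RNA-binding gene dazl.L lay at 7.51, 8.54, 8.24, 8.04 and 8.56 in Pax3GR explants, against 2.49, 2.38, 2.45, 2.44 and 2.44 in GR explants, at least 18.1-fold higher (adjusted p = 2.76e-05), and 3.90 with Zic1GR. The germ cell gene dnd1.L and the maternal T-box gene vegt.L both rose by 3.25 log2. The 2 that fell were fbxo43.L and sybu.S. In the values as deposited they differed by -4.79 and -2.17 log2 (adjusted p = 0.00274 and 0.0367). The germ cell marker ddx25.L, at 7.40 in Pax3GR explants and 6.46 in GR explants, was not called. The maternal cyclin ccnb1.2.L was not called (adjusted p = 0.286).

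Of 14 genes of muscle, heart and notochord 6 rose and 6 fell. All 5 GR arrays lay below background for each of the 6 that rose. The BMP-like ligand admp.S of the organiser rose by at least 26.8-fold, mef2c.L by at least 12.2-fold and the cardiac myosin gene myh6.S by at least 7.52-fold. The fast-muscle troponin gene tnni2.S was at least 50.2-fold lower and the heart regulator hand2.S at least 25-fold lower. The gene smpx.L had 9.53 in replicate 1 and 1.66 to 2.59 in the other Pax3GR explants, against 9.23 to 11.70 in GR explants. Among 15 blood and vessel genes 3 rose and 6 fell. The receptor gene flt1.L was at least 7.79-fold higher and hhex.L fell by 4.90 log2. Among 11 endoderm, liver and gut genes 2 rose and 3 fell, with the Wnt antagonist frzb.L at least 28.2-fold higher and gata5.S and foxa1.L at least 10.1-fold and at least 7.33-fold lower. Of the 3 genes of small secretory cells, chga.S rose and foxa1.L fell, while foxa1.S was not called (adjusted p = 0.317).

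Xenopus laevis keeps a long (.L) and a short (.S) copy of many genes from an ancient genome duplication, so that a response can be read in either copy. Both copies were measured for 1415 genes. Both rose in 192 cases and both fell in 197, a single copy was called in 519, neither in 437, and in 70 the copies were called in opposite directions. Of the 519 genes with a single call the other copy lay on the same side in 357. Across genes, which are not independent, the differences of the copies correlated with a Pearson r of 0.54, and the median gap between copies was 0.47 log2.

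The widest opposite pair was xepsin, a serine protease gene. The .L copy had 11.91, 10.79, 2.43, 1.95 and 2.07 in Pax3GR explants, against 12.38 to 13.14 in GR explants. The .S copy had 10.73, 12.25, 12.35, 2.31 and 12.68 in Pax3GR explants, against 2.25 to 2.35 in GR explants, and replicate 4 was at background. For the calcium-binding protein calbindin, calb1.L was at least 12.2-fold lower and calb1.S rose by 3.61 log2. GR replicate 3, at 3.83, was itself below background for calb1.L. For the lysophospholipase enpp2, which makes lysophosphatidic acid, enpp2.L rose to 12.19 ± 0.478 in Pax3GR explants, against 8.21 ± 0.563 in GR explants, and enpp2.S fell by 2.87 log2. The synuclein pair was less firm. The gene sncg.S rose by 8.05 log2, whereas the fall of sncg.L by 2.07 log2 (adjusted p = 0.0271) was lost without Pax3GR replicate 3, 4 or 5 or GR replicate 2, 3 or 5 (adjusted p = 0.0511 to 0.0842). Probe sets of 2 copies can cross-hybridise, and the files do not say how specific each is.

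**Figure D5:**
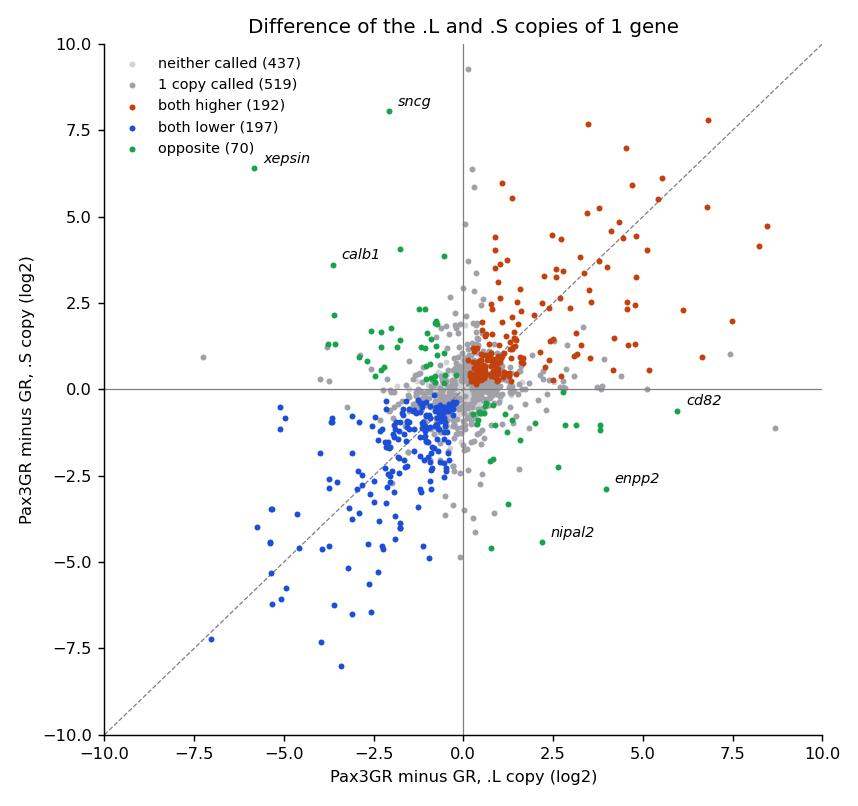
Difference between Pax3GR and GR explants (log2, values below 4 set to 4) of the .L copy (horizontal) against the .S copy (vertical) for 1415 genes, coloured by the calls of the 2 copies, with the line of equality dashed. The 192 genes with both copies higher and the 197 with both lower lie along the diagonal, and the 70 opposite pairs, of which 6 are named, lie in the other quadrants.

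Genes that were bright and did not pass the test were also listed. The 5 brightest were hmgn2.L, ccdc50.L, cirbp.S, krt70.S and aifm2.S, at 14.91 to 15.12 in Pax3GR explants and 14.91 to 15.06 in GR explants. Of the keratin copies checked, krt70.L and 4 of krt12 fell, while krt70.S lay at 14.91 ± 0.0928 in Pax3GR explants and 15.06 ± 0.0353 in GR explants (adjusted p = 0.0802). Calls were fewer among bright genes. Of named genes with a mean of log2 12 or more 26% were higher and 16.9% lower, while below log2 6 the shares were 27.5% and 29.4%.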

How the data were processed

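Single animal caps were measured on Affymetrix arrays, 5 for each of 4 injections. The deposited values are log2 intensities per probe set. Per the submitters' processing notes the tools were GCRMA and Partek (no role or version is given), and depth does not apply to arrays, whose number limits the precision. Of 32635 probe sets 96 controls were left out, and 15495 had 1 symbol in the platform annotation (279 several, 16765 none), of which 15384 matched RefSeq by gene ID. Differences were fitted with limma 3.58.1 (R 4.3.3) on all 20 arrays, 1 mean per injection, and Benjamini-Hochberg adjusted over 20519 probe sets. Folds are bounds at log2 4 where a whole group lay below it. Named genes follow a rule: the 25 largest non-overlapping rises and falls outside the usual markers, the 3 largest of each direction and the brightest gene not called in each list, the 6 widest opposite copies and the 5 brightest genes not called, of which the text leaves some out. A signalling list is not reported here. The members and lists were chosen with earlier results of these data known. Same-numbered explants did not deviate together (correlations of -0.172 to 0.116), so the numbers were not used to pair them. Alternatives were other filters, normalizations, variance models, a replicate block and leaving out each array.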

Additional observations from a re-analysis of the deposited data

Results flagged for a closer look

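For 168 of the genes named above, the 2 groups of 5 arrays were looked at, 336 groups in all, with values below 4 set to 4. Of these groups 36 held an array far from the other 4. Its distance was read as the share of the group's whole range that lay between it and its nearest neighbour (above 0.71). Chance alone gives about 1 in 20 groups for normal values without a floor. With values below 4 set to 4 that rate does not hold, so the count of 36 is a description. Pax3GR replicate 1 was the distant array in 17 cases.

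Replicate 1 stood high among the Pax3GR explants, with the other 4 at or below background and thus a share of 1, for tbc1d24.2.L, atp6v1b1.L, atp6v1g3.L, slc26a4l.L, foxi4.2.S, atp6v0a4.L, ccdc78.S, ak1.L and smpx.L. It stood high with smaller shares for twsg1.S (0.868), cfap52.S (0.752), pde9a.S (0.758), slc43a2.S (0.743), sdhb.S (0.787) and jak2.L (0.785), and low for sema3a.L (0.736) and nradd.L (0.713). Among the high ones are the ionocyte genes atp6v1b1.L, atp6v1g3.L, atp6v0a4.L, slc26a4l.L and foxi4.2.S and the cilium genes cfap52.S and ccdc78.S. Pax3GR replicate 2 stood high for cmahp.L (0.82). Pax3GR replicate 4 stood high for pdgfb.S (1) and hhex.L (1), ranges of 0.32 and 0.15 log2, and low for xepsin.S (0.775), where it was at background.

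Among the GR explants replicate 3 stood low for bcar3.L (0.771), fermt1.S (0.76), mmp3.L (0.85), calb1.L (0.952) and polr1e.L (0.901), and high for slc43a2.S (0.718) and flnc.L (0.75). GR replicate 1 stood high for nradd.L (1), foxi4.2.S (0.712), tll2.L (1), ak3.S (1) and txnrd1.L (1). GR replicate 2 stood high for htra1.S (0.712), pdlim1.L (0.89) and calb1.S (1).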

How the results depend on the processing

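None of the called genes that the rule named changed direction under the alternatives run. For lists only the counts were compared, and those of splicing and histone rises depended on the threshold. Leaving out 1 array at a time gave 9462 to 10837 differing probe sets (5067 to 6081 higher, 4372 to 4756 lower), 5768 to 6459 at 2-fold (2697 to 3076 higher, 3071 to 3383 lower), and 3968 to 4493 named genes (2148 to 2509 higher, 1804 to 1984 lower). The same ranges were 75 to 85 for ER falls, 34 to 52 for splicing rises, 15 to 26 for histone rises, 51 to 53 for transcription factor rises, 343 to 423 for copies called alike, 54 to 77 for opposite copies and 2536 to 3060 for genes differing from Zic1GR.

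Array weights gave 4612 genes differing from Zic1GR, 117 opposite copies, 33 histone and 80 splicing rises, where the main analysis gave 2977, 70, 20 and 47. A threshold of 0.01 in place of 0.05 gave 1885, 37, 9 and 25, through the stricter threshold itself. Of all named genes 2381 were higher in the main analysis, 3206 with array weights and 1735 at a threshold of 0.01. For array weights the cause was not tested. With the replicate number as a replicate block, which the data did not bear out as a pairing, 10264 probe sets were called. Of 72 list counts 52 stayed within 1.5 times the main value at a threshold of 0.01, 55 with array weights, 65 with a filter at log2 6, 66 in the 10 arrays alone and 67 to 72 under each of the other alternatives.

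The labels give no clutch, a group has 5 explants, Pax3GR replicate 1 stands apart, and the specificity of probe sets for 1 of 2 copies is not given. Values below log2 4 have no order, and folds there are bounds.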
